A study of Mus musculus with 4 samples.

Results

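Hypoxia was compared with normoxia in RAW264.7 macrophages that received no IL6, with 1 array for hypoxia (HC) and 1 for normoxia (NC). Genes entered the comparison where their log2 signal was 7.5 or more on at least 1 of these arrays. This held for 15492 probe sets, 34.4% of those on the array that are not controls, and for 8504 of 18194 genes. RAW264.7 is an established mouse macrophage line that came from a tumor induced by Abelson murine leukemia virus in a BALB/c mouse, so all cells are transformed and of 1 line. Both cultures were kept for 4 days in DMEM with fetal bovine serum, HC in 1% oxygen and NC in normoxia. The sources used here do not give the oxygen level of normoxia. The series holds 4 arrays, and the others are of the same conditions with IL6 added (NC+IL6 and HC+IL6). The study used the arrays to ask how hypoxia bears on the polarization of macrophages toward the M2 state.

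Cells sense oxygen through prolyl hydroxylases of the Egln family, which mark the alpha subunits of the hypoxia-inducible factors (HIF) for destruction while oxygen is at hand. When oxygen falls, HIF accumulates, pairs with Arnt and binds the hypoxia response element (HRE) near genes of glycolysis, mitophagy, vessel growth and HIF degradation itself. Macrophages meet low oxygen in tumors, wounds and inflamed tissue, and several oxygen-consuming syntheses, among them those of sterols, unsaturated fatty acids and heme, need molecular oxygen as a substrate.

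A log2 ratio is the log2 signal in HC minus that in NC, so 1.0 stands for 2-fold. Where the dimmer signal was under 7.5, it was raised to 7.5 before the ratio was taken, the fold is a lower bound, and it is written as at least that size. A gene is called higher or lower at 2-fold or more under this rule, which leaves genes whose brighter signal is under 8.5 without a call. A gene with several probe sets, which are groups of probes for 1 transcript, is represented by the brightest of them. Each condition was measured on 1 array, so the differences have no replicate check, no test was possible, and precision is limited by the number of arrays. The RNA came from whole cultures, so a difference in all cells and a difference in the share of cells that express a gene cannot be told apart. At the edge of the rule, the probe sets closest outside were those of Lamc1, with a log2 signal of 7.48 in NC, and of Ppp1r12a, with 7.41 in NC, whose HC signals fell barely short of the limit. The closest inside were those of Cnnm3, with 7.47 in NC and the limit itself reached in HC, and of Ndc1, with the limit reached in NC and 6.70 in HC.

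Over all probe sets the median log2 signal was 5.64 in NC and 5.90 in HC, and 388 and 256 probe sets were listed at 0. The ratio of 3' to 5' signal, a measure of RNA integrity, was 0.933 and 0.873 for Gapdh and 1.54 and 1.73 for Actb. Macrophage markers were bright on both arrays, with log2 signals of 15.01 and 14.94 for Csf1r, the receptor for the growth factor of macrophages. Of 20 macrophage identity genes 17 were at the limit, 3 were called higher (Fcgr3, Itgam and Aif1), and the median log2 ratio was 0.02. C1qa, C1qc and Mertk, which mark resident macrophages of tissues, were under the limit on both arrays, with log2 signals of 2.57 in NC and 6.85 in HC for C1qa and 5.59 and 7.48 for Mertk. C1qb, the other chain of complement C1q, had 2.20 and 7.61, the largest ratio of all genes before the dimmer signal is raised (5.42) and at least 1.08-fold after it. Of 25 markers of T, B, epithelial, stromal, endothelial and other cells 0 were at the limit on either array. The highest in NC was Epcam, with a log2 signal of 7.18 there and 3.17 in HC. The highest in HC was Kdr, with 6.12 there and 6.20 in NC. The summed signal of the 25 markers was 603 in NC and 654 in HC.

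Most genes differed little between HC and NC macrophages. Of the 8504 genes, 6995 (82.3%) lay within 1.5-fold, 4526 had a positive and 3978 a negative ratio, the median log2 ratio was 0.04, and the 5th and 95th percentiles were -0.68 and 0.96. In HC 252 genes were higher (2.96%) and 89 were lower (1.05%), and 42 of the former and 8 of the latter are bounds. The counts of each gene list below are to be read beside these shares. Of the 8504 genes 7910 were at the limit on both arrays, and for the others the sign of the ratio is set by the rule. Over probe sets, 486 of 15492 were higher (3.14%) and 160 lower (1.03%). Differences of 4-fold or more were seen for 10 genes in the higher and 5 in the lower direction. Higher calls made up 73.9% of the calls in genes as deposited, 61.6% after quantile normalization (197 higher and 123 lower) and 61.4% after cyclic loess (196 and 123), so the excess of higher genes was smaller on those scales. Of 113 called genes named by rule, Aif1, Clec4a2, Cysltr1, Hmox1, Kdm6b, Kdm7a, Manf, Mthfd1, Pdgfa and Wipi1 fell under 2-fold after quantile normalization.

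Within this pair of arrays only the several probe sets of a gene repeat a measurement. Of the 3596 genes with several probe sets at the limit, 63.5% had all of them on the same side of 0. Of the called genes with several, this held for 95 of 100 higher and 31 of 36 lower genes. Called genes were picked for a large ratio on the brightest of these same probe sets. Their greater agreement is thus partly set by the rule and is no independent check of the calls. The pooled SD of the log2 ratio between probe sets of a gene was 0.37 and fell with signal, from 0.48 where the brighter log2 signal was 7.5 to 8.5 to 0.11 above 13. This SD says how far probe sets disagree and nothing of how cultures vary.

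**Figure D1:**
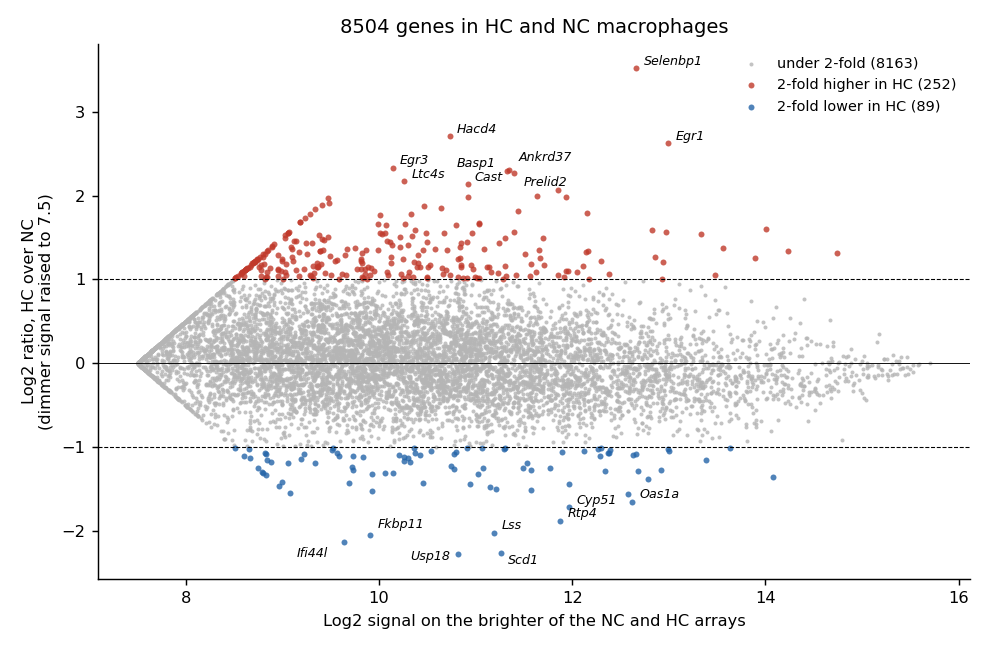
Log2 ratio of HC over NC (vertical axis, dimmer signal raised to 7.5) against the log2 signal on the brighter array (horizontal axis) for 8504 genes, 1 point per gene, with dashed lines at 2-fold. The 252 higher genes (red) outnumber the 89 lower genes (blue), and the slanted edge at the left is set by the limit of 7.5.

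The gene with the largest ratio was Selenbp1, a selenium-binding protein that oxidizes methanethiol, with log2 signals of 9.15 in NC and 12.66 in HC (11.5-fold). Hacd4, a dehydratase of the elongation of very long fatty acids, had 8.03 and 10.73 (6.53-fold). Egr1, an immediate-early transcription factor, had signals before the log of 1325 and 8174 (6.17-fold). These genes differ in function. Behind them stood Egr3, a relative of Egr1 (7.81 and 10.14, 5.03-fold), Ankrd37, an ankyrin-repeat protein and known HIF target (9.04 and 11.35, 4.94-fold), and Basp1, a membrane-bound signaling protein (9.03 and 11.33, 4.92-fold). Prelid2, of a family that moves lipids inside mitochondria, was 4.81-fold higher, Ltc4s, the enzyme that makes leukotriene C4, was 4.51-fold higher, and Cast, which encodes the calpain inhibitor calpastatin, was 4.40-fold higher. All 9 of these genes were at the limit on both arrays, so none of these folds is a bound.

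The remaining genes among the 20 highest included receptors, signaling genes and a noncoding RNA. Anxa3, an annexin that binds phospholipids with calcium, was 4.17-fold higher, Clec7a, the receptor for fungal beta-glucans, was 3.99-fold higher, and C3ar1, the receptor for the complement fragment C3a, was 3.97-fold higher. Neat1, the noncoding RNA that builds nuclear paraspeckles, had log2 signals of 9.95 in NC and 11.93 in HC (3.94-fold). Scel, known from the cornified envelope of skin, had 6.58 and 9.48 and was at least 3.93-fold higher. Sgk1, a kinase induced by serum and glucocorticoids, was 3.72-fold higher, Mxd4, which competes with MYC for its partner MAX, was 3.67-fold higher, and Fam20c, a kinase of secreted proteins, was 3.60-fold higher. Sla, an adaptor that dampens receptor signaling, was 3.53-fold higher, with 9.62 and 11.43. Pfkfb3 and Egr2 complete the 20 and are described with their groups.

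Among the 20 lowest genes, 4 encode enzymes of sterol synthesis, 4 are interferon-stimulated, and 2 serve heme synthesis. Usp18, which strips the ubiquitin-like Isg15 from proteins, had log2 signals of 10.82 in NC and 8.54 in HC (4.85-fold lower). Scd1, the desaturase that makes oleic acid, had signals before the log of 2460 and 512 (4.80-fold lower). Ifi44l, an interferon-stimulated gene, had 9.64 and 6.99 and was at least 4.40-fold lower. Fkbp11, a proline isomerase of the endoplasmic reticulum, was 4.14-fold lower, at 9.91 and 7.86. Outside these groups, Ndufb1, a subunit of respiratory complex I, was 2.91-fold lower, Oxnad1, a predicted oxidoreductase, 2.88-fold (a log2 ratio of -0.29 on its other probe set), Bcat1, the cytosolic transaminase of branched-chain amino acids, 2.77-fold, and Tmem97, a sterol-regulated membrane protein, 2.70-fold. Snhg3, a noncoding host gene of small nucleolar RNA, was 2.69-fold lower, and Kyat3, an aminotransferase of kynurenine, was 2.66-fold lower.

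**Figure D2:**
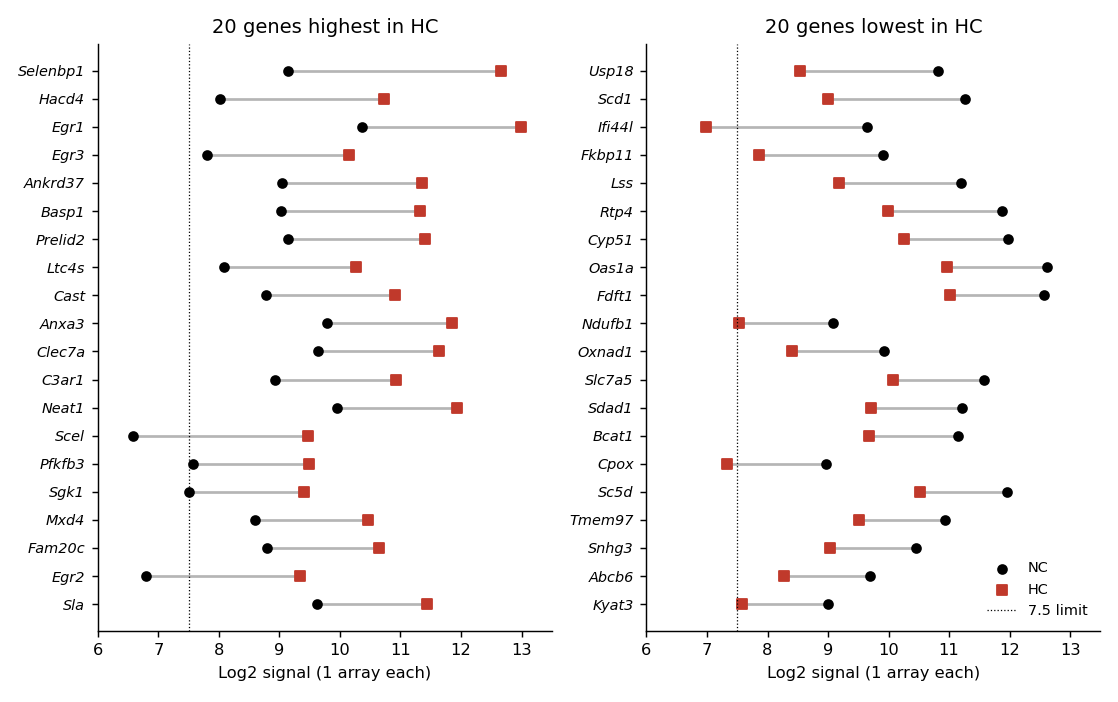
Log2 signal on the NC array (black circles) and the HC array (red squares), 1 array each, for the 20 genes highest (left) and the 20 lowest (right) in HC, ordered by log2 ratio, with a dotted line at the limit of 7.5. Selenbp1 has the longest bar on the left, and on the right the HC signal of Ifi44l and of Cpox lies under the limit.

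HIF targets outside glycolysis held higher calls only. Of 34 genes 14 were higher and 0 were lower, 30 had a positive log2 ratio, and the median was 1.02 against 0.04 over all 8504 genes. Among all 8504 genes 2.96% were higher, 1.05% were lower, and 4526 had a positive ratio. Over the 28 HIF targets that were at the limit on both arrays the median was 0.73. Genes that limit HIF itself were among them. Egln1, the main HIF prolyl hydroxylase, had log2 signals of 9.28 in NC and 10.43 in HC (2.22-fold), whereas Egln3, a HIF-induced hydroxylase, had 5.49 and 8.02, a bound of at least 1.43-fold. Egln2, which is not a typical HIF target, had a log2 ratio of -0.42, Hif1an, the asparagine hydroxylase, -0.42, and Hif1a -0.25.

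Mitochondrial and death-related HIF targets were higher too. Bnip3, a receptor for the removal of mitochondria, had 12.40 in NC and 14.00 in HC (3.04-fold). Mgarp, a mitochondrial protein of the same response, had 6.46 and 9.23, at least 3.32-fold higher. Ddit4, which restrains mTORC1, had 9.15 and 10.80 (3.13-fold). Bhlhe40, a transcriptional repressor of the clock and of immune genes, was 3.16-fold higher, and Ndrg1, Ero1a, Gbe1, Ak4 and Fam162a had log2 ratios of 1.57, 1.27, 1.30, 1.25 and 1.34. They serve, in this order, stress signaling, disulfide formation, glycogen branching, mitochondrial adenylate balance and apoptosis. Secreted products were at low signal. Adm, the vasodilator adrenomedullin, had 6.80 and 8.84 (at least 2.54-fold) and Vegfa, the vascular endothelial growth factor, had 7.28 and 8.74 (at least 2.35-fold). Tfrc, the transferrin receptor, at -0.04, the cytokine Mif at -0.04, the ubiquitin ligase subunit Wsb1 at -0.11 and Angptl4, an inhibitor of lipoprotein lipase, at 0.01 were near 0.

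Promoter sequence of the called HIF targets with the highest folds and an HRE upstream of the start is shown because these are the elements that HIF binds. Both are 120 bases from the RefSeq annotation of GRCm38.p6, read 5' to 3' on the strand of the gene, with matches to the HRE core (ACGTG or GCGTG on either strand) in capitals. Ankrd37 lies on the minus strand at chr8:45999912-46000031 and holds 2 of its 4 matches in the stretch shown. Mgarp lies on the minus strand at chr3:51396678-51396797 and has 1 match, 219 bases before the start.
Ankrd37: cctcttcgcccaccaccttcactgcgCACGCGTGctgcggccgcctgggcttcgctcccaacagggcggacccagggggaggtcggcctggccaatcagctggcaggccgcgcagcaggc
Mgarp: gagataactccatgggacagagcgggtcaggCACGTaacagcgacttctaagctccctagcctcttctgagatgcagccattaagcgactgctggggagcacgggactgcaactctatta
Of 43 promoters of the HIF list 30 (69.8%) held an HRE core in the 250 bases before the start, of 44 promoters of the glycolysis list 35 (79.5%). The share was 38.6% over all promoters of the annotation and 58.4% over those of the 8504 genes. Over promoters of genes called higher it was 51.1%, and over those of genes called lower 57.1%, both under the share of the 8504 genes. A match is a description of these letters and not a bound site.

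Few glycolytic genes reached 2-fold. Of 31 genes of glucose uptake, glycolysis and glycogen 2 were higher and 0 lower, 26 had a positive log2 ratio, and the median was 0.35. Pfkfb3, which makes the activator of phosphofructokinase, had log2 signals of 7.58 in NC and 9.49 in HC (3.75-fold), and Aldoc, a form of aldolase, had 11.73 and 12.94 (2.31-fold). Pdk1, which blocks the entry of pyruvate into mitochondria, with a log2 ratio of 0.92, Eno3, a form of enolase, with 0.94, and Gys1, glycogen synthase, with 0.81, came next without reaching 2-fold. Lactate dehydrogenase Ldha at 0.17, phosphoglycerate kinase Pgk1 at 0.35, the glucose transporter Slc2a1 at 0.49, hexokinase Hk2 at -0.05 and the lactate exporter Slc16a3 at 0.11 lay nearer to 0.

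Mitochondrial genes as a group had small negative ratios. In the respiratory chain and ATP synthase 62 of 76 genes had a negative ratio, Ndufb1 alone was lower, 0 were higher, and the median was -0.17. That median was -0.04 after cyclic loess. Housekeeping genes had nearly the same median as deposited, -0.16, with 8 of 9 negative. Counts of negative genes in this and later lists are to be read beside that. The highest members were Cox7a1, a muscle-type subunit of cytochrome oxidase, with 0.88 and Cox7a2l, which joins complexes into supercomplexes, with 0.64, both under 2-fold. The mitochondrial ribosome had 70 of 76 genes negative, a median of -0.36 and Mrpl38 called lower (2.16-fold). In the TCA cycle and glutamine list 20 of 23 genes were negative, the median was -0.29, and the aspartate aminotransferase Got1 had the lowest ratio, -0.97. Fatty acid oxidation differed from these, with a median of 0.16 over 18 genes. Its only called gene was Cpt1a, the carnitine transferase that admits fatty acids to mitochondria, at 9.35 in NC and 10.70 in HC (2.55-fold higher).

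Cholesterol synthesis was the group with the largest share of called genes among lists of 10 or more. The lists were chosen with earlier results of these data known, so this rank is a description only. Of 22 genes 16 were lower and 0 were higher, 21 had a negative log2 ratio, and the median was -1.08. The difference ran along the pathway. At its start, Hmgcs1, which makes HMG-CoA, had signals before the log of 8199 in NC and 3966 in HC (2.07-fold lower), and the next enzymes Mvk and Mvd had ratios of at most -1.25 and of -1.09. Idi1 at -1.38 and Fdps at -1.36 make the isoprenoid precursors. In the branch to sterols, Fdft1, squalene synthase, had 12.58 and 11.01 (2.95-fold lower), Sqle, squalene epoxidase, had a ratio of -1.07, and Lss, which closes the sterol rings, had 11.20 and 9.17 (4.06-fold lower). Cyp51, the oxygen-dependent lanosterol demethylase, had 11.97 and 10.25 (3.29-fold lower).

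The late steps were lower as well. Msmo1 and Nsdhl, which remove the methyl groups of sterols, had log2 ratios of -1.27 each, Ebp had -1.03, Sc5d, a desaturase, had -1.44 (-0.32 on its other probe set) and Dhcr7, the last step, had -1.07. Pmvk, Hsd17b7 and Tm7sf2 had -0.88, -0.85 and -0.46 and did not reach 2-fold. Regulators were split. Insig1, which holds the sterol sensor Scap in the endoplasmic reticulum and is itself a target of the pathway, had -1.25, Srebf2, the master transcription factor, had -0.79, Scap had -0.33, and Insig2, the other retention factor, had 0.83. Stard4, a cholesterol carrier, had -1.06. The enzymes that use molecular oxygen (Sqle, Cyp51, Msmo1 and Sc5d) ran from -1.72 to -1.07, and the others from -2.02 to -0.46.

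**Figure D3:**
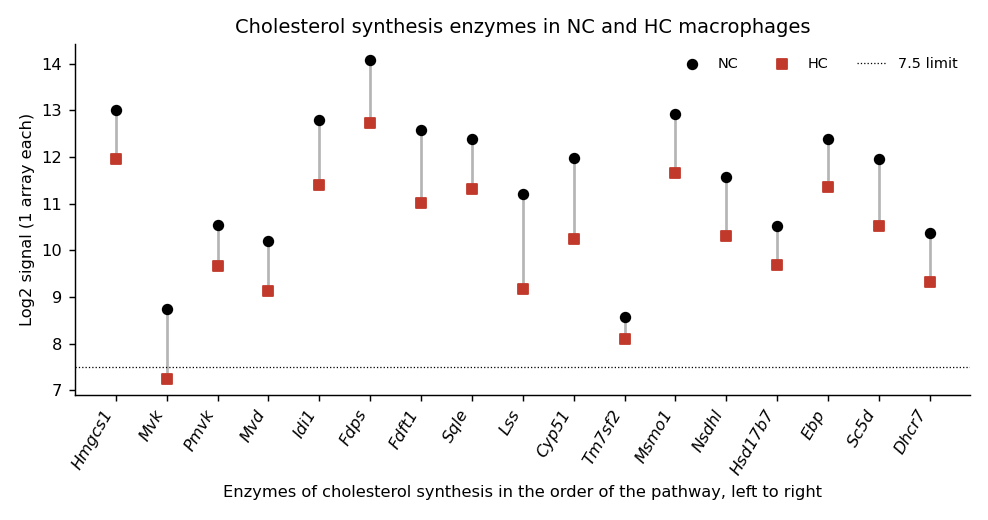
Log2 signal of 17 enzymes of cholesterol synthesis in NC (black circles) and HC (red squares), 1 array each, in the order of the pathway. The HC signal lies under the NC signal for every enzyme shown, from the smallest gap at Tm7sf2 to the largest at Lss, and heights are not comparable between enzymes because each has its own probes.

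Hmgcs1 is the gene of the list whose promoter held a sterol response element (SRE, searched as TCACNCCAC on either strand), the site of the Srebf factors. The 120 bases at chr13:119690158-119690277, plus strand, are shown with the match in capitals, 137 bases before the start.
Hmgcs1: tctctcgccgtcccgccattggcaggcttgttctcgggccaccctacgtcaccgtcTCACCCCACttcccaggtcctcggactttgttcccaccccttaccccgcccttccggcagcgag
Of 24 promoters of the list 1 (4.17%) held this element, against 1.05% over all promoters.

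Fatty acid synthesis held calls in both directions. Of 29 genes of fatty acid synthesis and triglyceride storage 3 were lower, 2 were higher, and the median was -0.31. Besides Scd1, Fads2, a desaturase of polyunsaturated fatty acids, was 2.28-fold lower (11.53 in NC and 10.34 in HC) and Fasn, fatty acid synthase, was 2.09-fold lower (11.90 and 10.84). Acaca, which makes malonyl-CoA, and Scd2 had ratios of -0.92 each, and the elongase Elovl6 had -0.72. The 2 higher genes, Hacd4 and Hacd1 (ratio 1.04), belong to the same family of elongation dehydratases, while their relatives Hacd2 and Hacd3 had 0.45 and -0.29. Of the genes of triglyceride storage, Plin2, a coat protein of lipid droplets, had 0.98, Pnpla2, the main triglyceride lipase, 0.74 and Hilpda, a HIF target that blocks lipolysis, 0.60, all under 2-fold. Among lipid handling genes, Fabp5, a fatty acid carrier, had -0.89, and the lipase Lpl with 14.71 and 14.80 did not differ by 1.5-fold.

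Several interferon-stimulated genes were lower in HC. Of 35 genes 6 were lower and 0 were higher, 25 had a negative log2 ratio, and the median was -0.61. With Usp18 and Ifi44l, Rtp4, a chaperone of receptors, had log2 signals of 11.87 in NC and 10.00 in HC (3.68-fold lower). Oas1a, which makes oligoadenylate on sensing double-stranded RNA, had 12.62 and 10.97 (3.14-fold lower). Irf7, the transcription factor that amplifies the interferon response, was lower with a ratio of at most -1.33, and Xaf1, a death-promoting gene, had -1.31. Not all members followed. Samd9l, an antiviral factor, had 0.51, Epsti1 0.30 and Ifit2 0.28. Among the related guanosine triphosphatases Igtp (8.88 and 7.71, 2.25-fold) and Irgm2 (8.83 and 7.75, 2.11-fold) were lower and Irgm1 had -0.79. In the class I antigen list 1 of 15 genes was lower, H2-T24, with at least 2.14-fold, while the classical genes H2-K1 and H2-D1 had -0.11 and -0.07. The median of that list was -0.20, and -0.09 over the 12 at the limit on both arrays.

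The promoters of the called interferon genes with the lowest ratios that held an interferon-stimulated response element (ISRE, searched as GAAANNGAA on either strand) are shown with matches in capitals. Ifi44l lies on the minus strand at chr3:151762892-151763011, with its match 13 bases before the start. Oas1a lies on the minus strand at chr5:120907526-120907645, with overlapping matches 20 and 14 bases before it.
Ifi44l: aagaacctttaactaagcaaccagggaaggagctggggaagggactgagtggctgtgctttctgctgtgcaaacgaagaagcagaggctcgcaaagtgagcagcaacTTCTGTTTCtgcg
Oas1a: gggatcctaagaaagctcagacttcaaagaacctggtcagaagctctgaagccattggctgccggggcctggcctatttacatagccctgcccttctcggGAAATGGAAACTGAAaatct
Of 34 promoters of the list 11 (32.4%) held this element, against 5.94% over the promoters of the 8504 genes and 7.13% over all promoters.

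Genes of amino acid supply and of ATF4, the transcription factor of amino acid shortage, held only lower calls. Of 26 genes 5 were lower and 0 were higher, 20 had a negative log2 ratio, and the median was -0.54. Atf4 itself had log2 signals of 12.62 in NC and 11.53 in HC (2.14-fold lower), and its relative Atf5 had a ratio of -1.07. Slc7a5, the importer of large neutral amino acids, had 11.58 and 10.07 (2.84-fold lower), and Chac1, which degrades glutathione, had 8.79 and 7.25 (at least 2.45-fold lower). Mthfd2, a mitochondrial folate enzyme, was 2.15-fold lower. On the positive side stood Aldh1l2, a folate dehydrogenase of mitochondria, at 0.98 and the transcription factors Cebpg at 0.80 and Atf3 at 0.77. All 19 aminoacyl-tRNA synthetases, which charge tRNA with amino acids, had negative ratios, with a median of -0.53, and Yars was called (10.32 and 9.14, 2.26-fold lower). Of 26 promoters of the ATF4 list 5 (19.2%) held the ATF4 element searched as TGATGNAA, against 1.90% over the promoters of the 8504 genes and 3.45% over all promoters.

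Related syntheses were summarized in lists put together after the values were seen, whose counts are a description only. Of 20 folate and one-carbon enzymes 3 were lower (Shmt1, Mthfd1 and Mthfd2), 15 were negative, and the median was -0.51. Of 11 genes of heme synthesis 3 were lower, with Cpox, which uses oxygen, at 8.96 in NC and 7.34 in HC (at least 2.75-fold), the porphyrin transporter Abcb6 at 9.69 and 8.27 (2.69-fold) and Alad at 11.31 and 10.29 (2.02-fold). Fech, the last step of the pathway, had a log2 ratio of -0.03, and Slc25a37, the mitochondrial iron importer, was 2.28-fold higher. Hmox1, which breaks heme down, was higher, with 8.22 and 9.37 (2.21-fold). Of 11 polyamine genes Srm, spermidine synthase, was lower (13.39 and 12.24, 2.22-fold), and the median was -0.24.

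Among protein folding genes of the endoplasmic reticulum all calls were lower. Of 38 genes 3 were lower, 33 were negative, and the median was -0.38. Besides Fkbp11 these were Creld2 with log2 signals of 12.34 in NC and 11.05 in HC (2.44-fold) and Manf, a secreted survival factor, with 13.63 and 12.62 (2.01-fold), both targets of the unfolded protein response. The sensor of that response Ern1 had a positive ratio of 0.87. Of 29 heat-shock chaperones 24 were negative with a median of -0.28, while the inducible chaperone Hspa1b (2.29-fold) and its partner Dnajb4 (2.13-fold) were higher. The lowest log2 ratio among their probe sets was 0.37 for Hspa1b and 0.22 for Dnajb4. Neither gene reached 2-fold as a mean over probe sets. Of 38 proteasome subunits 36 were negative, 0 were called, and the median was -0.37.

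Genes that build ribosomes held lower calls, and those of the ribosome itself held none. Of 45 cytosolic ribosomal protein genes 0 were called, and the median was -0.02. On the list of ribosome assembly, 26 of 26 genes were negative, with a median of -0.46, and Rrp12, an export factor of ribosomal subunits, was called (9.34 in NC and 8.15 in HC, 2.28-fold lower). A wider list of rRNA processing factors and exosome subunits, put together after the values were seen, had 11 of 75 genes lower, 0 higher and 70 negative, with a median of -0.39. Its lowest members were Sdad1 with 11.21 and 9.71 (2.84-fold lower, other probe set at a log2 ratio of -0.12), Pwp2 with 10.06 and 8.76 (2.48-fold lower) and Rbm19 (at least 2.47-fold lower), all parts of the machinery that processes pre-rRNA. Wdr18 was 2.34-fold lower, but its other probe set had a log2 ratio of 0.32. Translation initiation factors had a median of -0.18 over 45 genes with 0 called, and splicing regulators -0.17 over 50 with 0 called.

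Genes of DNA replication and mitosis held 1 call between them. Of 43 replication genes 41 were negative, the median was -0.41, and Pold2, a subunit of polymerase delta, was called, with log2 signals of 11.07 in NC and 9.83 in HC (2.37-fold lower). Tk1, thymidine kinase, had -0.84 and Cdc45, of the replicative helicase, -0.77. Of 30 mitosis genes 0 were called, and the median was -0.14. They ran from -0.84 for the kinase Aurka to 0.84 for the kinetochore protein Cenpf, and Mki67, the proliferation marker, had 0.29.

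On the list of cyclins, CDK inhibitors and p53 targets, 18 of 20 genes were positive, the median was 0.39, and 3 were higher. These were Trp53inp1, a p53-induced stress gene, with log2 signals of 8.33 in NC and 9.99 in HC (3.16-fold), Btg2, an antiproliferative gene, with 9.45 and 10.84 (2.62-fold), and Ccng2, an atypical cyclin of resting cells, with 10.53 and 11.57 (2.06-fold). The CDK inhibitors Cdkn1a and Cdkn1b had ratios of 0.15 and 0.41. A list of growth-restraining and FOXO-linked genes, put together after the values were seen, held 16 higher genes among 31, with 0 lower and a median of 1.26, or 0.88 over the 27 at the limit on both arrays. Among them were Mxd4 and Sgk1, Pdcd4, a translation inhibitor, with 8.94 and 10.49 (2.92-fold), Tsc22d3, a glucocorticoid-induced leucine zipper, with a ratio of 1.51, Foxn3 with 1.51, Ypel5 with 1.46 and the arrestin-like Arrdc3 with at least 1.40. The factors Foxo1 and Foxo3 had 0.71 and 0.78.

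Genes of cell death and of self-digestion changed in a few members. Of 12 BCL2 family genes 2 were higher, Bnip3 and Bmf, a death activator that binds BCL2 (8.72 in NC and 10.13 in HC, 2.66-fold), and Bbc3, another activator, had -0.67. Of 32 autophagy genes 4 were higher, 0 were lower, and the median was 0.15, beside 2.96% higher and 1.05% lower among all 8504 genes. With Bnip3 these were Map1lc3a, an LC3 protein of the autophagosome membrane (9.41 and 10.84, 2.70-fold), Ulk2, an initiating kinase (8.85 and 9.95, 2.15-fold), and Wipi1, which binds the forming membrane (at least 2.07-fold). Of 40 lysosomal genes Ctso, a cathepsin, was higher (2.29-fold), and the median was 0.08.

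Immediate-early transcription factors, which are induced within minutes of a stimulus in many cells, held only higher calls. Of 22 genes 7 were higher and 0 were lower, 20 were positive, and the median was 0.62. Among all 8504 genes 2.96% were higher and 4526 were positive. Egr2 had log2 signals of 6.79 in NC and 9.34 in HC (at least 3.57-fold), beside Egr1 and Egr3. Zfp36l1, which destabilizes mRNA, had 8.46 and 10.01 (2.93-fold), Ier3 a log2 ratio of 1.33, Fosl2 1.19 and Klf2 at least 1.11. Other members were nearer to 0, with 0.53 for Fos, 0.39 for Jun and 0.24 for Junb. Feedback inhibitors of MAPK signaling held 2 higher calls. Of 15 phosphatases and Sprouty genes 12 were positive with a median of 0.37, and Dusp6, the phosphatase of ERK, had 9.13 and 10.68 (2.92-fold), and Dusp1, which acts on p38 and JNK, 8.69 and 9.82 (2.18-fold). The kinases of these cascades had 0 calls in 22 genes and a median of 0.03. On the NF-kB list 2 of 14 were higher, both of the IkB family, Nfkbiz (8.51 and 10.06, 2.93-fold) and Nfkbie (8.63 and 9.99, 2.55-fold). Other members of that family, Nfkbia, Bcl3, Nfkbib and Nfkbid, had ratios of 0.24, 0.21, -0.27 and -0.46. The subunits Rela and Rel had 0.06 and -0.58.

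Several receptors of the macrophage surface were higher. Among 10 C-type lectins and Siglecs 3 were higher and 9 were positive, with a median of 0.57. Clec10a, a galactose-binding lectin, had log2 signals of 8.84 in NC and 10.22 in HC (2.61-fold), and Clec4a2, an inhibitory receptor, 8.13 and 9.17 (2.05-fold). Among 11 Fc and scavenger receptors, Fcgr3, a low-affinity receptor for IgG, had 10.36 and 12.16 (3.48-fold) and its neighbor in the genome Fcgr4 had 6.21 and 8.69 (at least 2.28-fold). The inhibitory Fcgr2b had a ratio of 0.73 and the high-affinity Fcgr1 -0.23. Of 9 integrins, 7 were at the limit on both arrays, with a median of 0.66 (0.81 over all 9), and Itgam, the alpha chain of complement receptor 3, was called (8.43 and 10.08, 3.13-fold). Its partner Itgb2 had 0.66. Cd74, the invariant chain of class II antigen presentation, had 9.37 and 11.04 (3.17-fold).

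Genes used as labels of macrophage activation were few at this limit. Of 26 genes of alternative activation (M2) on the array 8 were at the limit. Of these 4 were higher (Clec7a, Clec10a, Egr2 and Vegfa), 8 were positive, and the median was 1.37. Over the 5 that were at the limit on both arrays the median was 0.72. The others, Egr2 and Vegfa among them, were at the limit in HC only, so their ratios had to be positive. Among all 8504 genes 2.96% were higher and 4526 were positive. Of 21 genes of classical activation (M1) on the array 7 were at the limit. Of those 2 were higher, Ptgs2 and Cxcl2, the latter at the limit in HC only, and the median was 0.35. Among 9 chemokines Cxcl2, which attracts neutrophils, had log2 signals of 6.49 in NC and 9.28 in HC (at least 3.44-fold), while the interferon-induced Cxcl10 had 8.70 and 8.01 and the monocyte attractants Ccl3 and Ccl4 had ratios of -0.13 and 0.35. Of 10 cytokine genes, Tnf had 0.35, Tgfb1 0.72 and Il18 -0.10. Of 26 cytokine receptors and signal chains 23 were positive with a median of 0.30, and Il10ra, the receptor chain for IL10, was called (7.93 and 9.41, 2.79-fold). Toll-like receptors and their adaptors had 0 calls in 18 genes and a median of 0.15 (0.07 over the 17 at the limit on both arrays), and Casp4, the caspase that senses lipopolysaccharide, was higher (8.33 and 9.55, 2.33-fold) on the inflammasome list. Tnfrsf11a, the receptor RANK of osteoclast precursors, was 2.18-fold lower, but its other probe set had 0.10.

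Lipid mediators held calls in both the leukotriene and the prostaglandin branch. Of 12 genes of prostaglandins and leukotrienes 4 were higher, 11 were positive, and the median was 0.60. In the leukotriene branch, Alox5, the 5-lipoxygenase, had log2 signals of 9.71 in NC and 10.85 in HC (2.21-fold). Its activating protein Alox5ap had a ratio of 0.67, and Ltc4s had 8.09 and 10.26. Cysltr1, a receptor for the product, had 9.48 and 10.50 (2.03-fold). Its other probe set had a log2 ratio of 0.30, and its call was lost after quantile normalization and as a mean over probe sets. In the prostaglandin branch, Ptgs2, the inducible cyclooxygenase, had 9.72 and 11.08 (2.58-fold), and was the only call, with 0.78 for the receptor Ptger4, 0.49 for the synthase Hpgds and -0.98 for Ptges2, a prostaglandin E synthase and the only negative member. Of 13 angiogenic factors and receptors 4 were higher, among them Igf1, insulin-like growth factor (10.00 and 11.14, 2.21-fold), and Pdgfa, a platelet-derived growth factor (9.17 and 10.23, 2.09-fold), and Vegfb had -0.47. The median was 0.86, and 0.53 over the 9 at the limit on both arrays.

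Chromatin and nuclear genes held further calls. Of 27 oxygen-dependent demethylases and related enzymes Kdm6b, which removes methyl groups from lysine 27 of histone H3, had log2 signals of 7.57 in NC and 8.61 in HC (2.05-fold), and Kdm7a had 9.22 and 10.25 (2.03-fold). Kdm3a, a HIF target, had 0.78 and the RNA demethylase Fto -0.76. On a histone list under current symbols, put together after the values were seen, H2bc21 (8.78 and 10.37, 3.01-fold) and H2ac19 (8.49 and 10.03, 2.91-fold) were higher among 10 genes. Of 199 zinc finger genes 8 were higher and 141 had a positive ratio, beside 252 higher (2.96%) and 4526 positive among all 8504 genes. Those called included Zfp329 (at least 3.22-fold) and the methyl-DNA-binding repressor Zbtb4 (at least 2.94-fold). Of the 199, 42 were at the limit on 1 array only, and over the other 157 the median was 0.19. Of 137 solute carriers 4 were higher, among them Slc16a4, a monocarboxylate transporter (7.54 and 9.03, 2.81-fold), 3 were lower, and the median was 0.03. The shares over all 8504 genes were 2.96% higher and 1.05% lower.

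**Figure D4:**
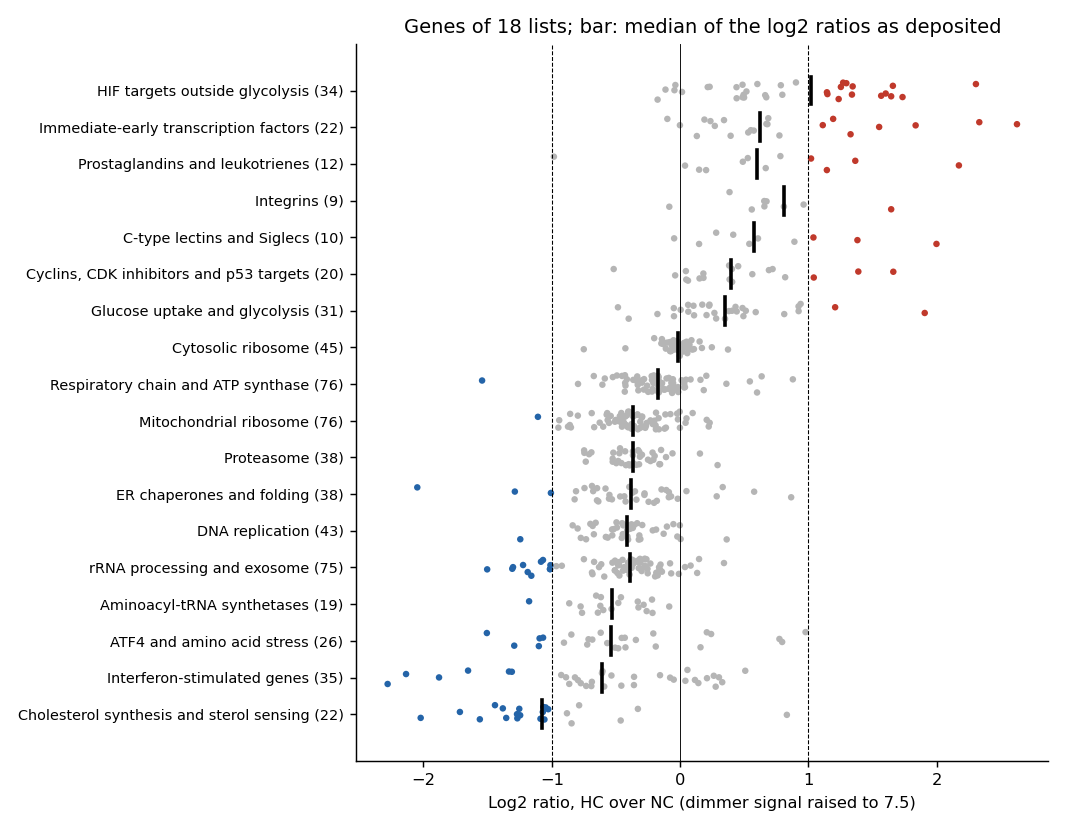
Log2 ratio of HC over NC (horizontal axis, dimmer signal raised to 7.5) for the genes of 18 lists, 1 point per gene, red where 2-fold higher and blue where 2-fold lower, with the number of genes in parentheses and black bars at the medians of the ratios without that limit. Among the 18 lists shown, HIF targets lie farthest to the right (median 1.02) and cholesterol synthesis farthest to the left (-1.08), and cytosolic ribosomal proteins cluster at -0.02. Lists not shown had higher medians, among them M2 genes (1.37) and growth-restraining and FOXO-linked genes (1.26). The list of rRNA processing and exosome was put together after the values were seen.

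Other lists showed little. NADPH oxidase genes, which make the oxidative burst, had 0 calls in 6 genes and a median of -0.04, and 25 antioxidant and pentose phosphate genes had 1 call (Hmox1) and a median of -0.04. In the calpain system Cast was called while the calpains Capn2 and Capn7 had log2 ratios of -0.09 and 0.17. Of 9 clock genes Bhlhe40 was called, and Arntl and Dbp had 0.60 and 0.70. Of 36 Rab guanosine triphosphatases and 25 ubiquitin-conjugating enzymes 0 were called, with medians of 0.14 and -0.08. Housekeeping genes had 0 calls in 9 genes, 8 negative ratios and a median of -0.16.

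The same comparison exists with IL6 in the medium, on arrays not used above. Of the same 8504 genes, HC+IL6 had 190 higher (2.23%) and 97 lower (1.14%) when set against NC+IL6. Of the 252 genes higher without IL6, 241 were at the limit in the IL6 pair, 227 of them (94.2%) had the same sign, 85 were called higher and 1 lower, and their median log2 ratio was 0.83 against 1.26. All 89 genes lower without IL6 were at the limit, 87 (97.8%) had the same sign, 29 were called lower, and the median was -0.74 against -1.19. Genes not called without IL6 had the same sign in 75.5% of 7899 cases. The called genes were picked for large ratios in the pair without IL6, so smaller ratios with IL6 are no result in themselves.

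Ratios with IL6 differed from gene to gene. Ankrd37 had a log2 ratio of 1.96 with IL6 against 2.30 without, Cast 1.95 against 2.14 and Cd74 1.87 against 1.66. Selenbp1 had 2.91 against 3.52. Egr1 had 0.29 with IL6 against 2.62 without, with log2 signals of 12.42 in NC+IL6 and 12.72 in HC+IL6. Ddit4 had -0.16 against 1.64, with 10.91 and 10.76. Both genes were thus about as bright on the NC+IL6 array as in HC. Cxcl2 went the opposite way, with 12.39 in NC+IL6 and 10.26 in HC+IL6, a ratio of -2.13 against at least 1.78. Among the lower genes, Usp18 had -3.21 with IL6, Ifi44l -3.38 and Slc7a5 -2.14, while Scd1 had -1.11 and Lss -1.21. Lss was the only 1 of the 22 cholesterol synthesis genes that was lower in the IL6 pair, and 0 were higher. The median of that list was -0.53 with IL6 against -1.08 without. Interferon-stimulated genes had 20 lower and 1 higher of 35 in the IL6 pair. Differences between the pairs were not tested.

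**Figure D5:**
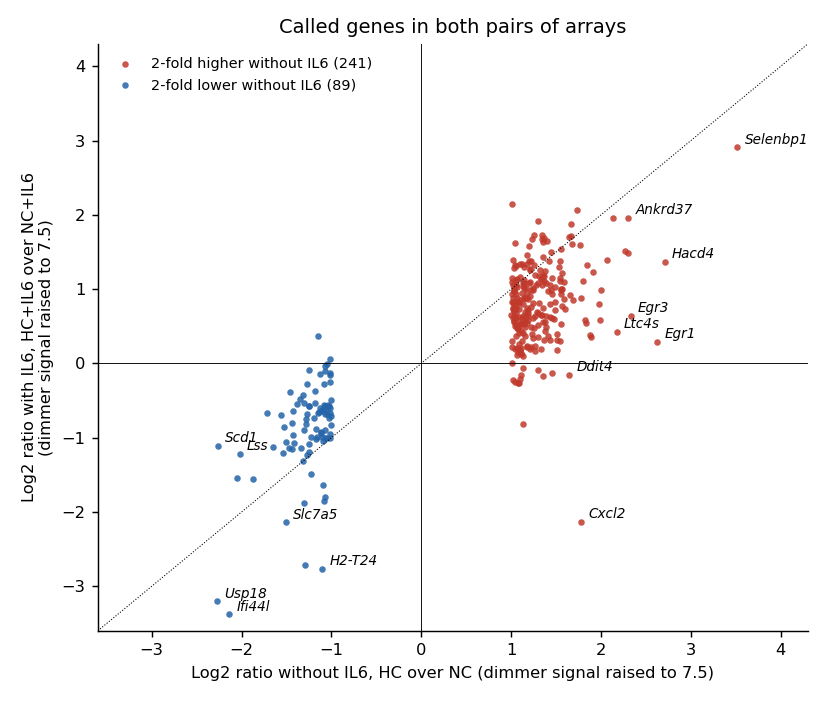
Log2 ratio with IL6 (HC+IL6 over NC+IL6, vertical axis) against that without IL6 (HC over NC, horizontal axis), both with the dimmer signal raised to 7.5, for the 241 higher (red) and 89 lower (blue) genes that were at the limit in the IL6 pair, 1 point per gene, with a dotted line at equal ratios. Most red points lie above 0 and most blue points below it, and Cxcl2 stands alone at 1.78 and -2.13.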

How the data were processed

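RNA of RAW264.7 macrophages was measured on 4 Affymetrix mouse arrays, 1 per condition. The authors deposited a log2 signal per probe set, made with MAS5 (version not given in the sources used here) and scaled per array (mean after trimming 2% at each end near 500, at 499.8), so genes are compared relative to the array as a whole and low signals carry much of the noise. Of 45101 probe sets 64 are controls. Symbols came from the platform annotation, which may be old: 35890 probe sets were listed, 34958 with 1 symbol, 932 with several (not named) and 9211 not listed. Gene numbers of 34754 matched RefSeq of GRCm38.p6, and 0 symbols changed.

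From these values ratios, counts and medians were computed with Python 3.11.15, numpy 2.4.6 and pandas 2.3.3, figures with matplotlib 3.10.9, and scalings with limma 3.58.1 in R 4.3.3. The limit of 7.5 and the 2-fold rule were as stated, and the scripts were tested on simulated data. Medians use ratios without the limit, counts use ratios with it. The members and the 64 lists were chosen with earlier results of these data known, 6 further lists after their values were seen. Named genes are the 20 highest and 20 lowest called genes and up to 4 per list (2 without a call), and other list members were named after their values were seen. Alternatives were quantile normalization, cyclic loess, HC shifted to a median ratio of 0, no limit, limits of 6.5 and 8.5, 100 added to each signal, probe sets without _x_at or _s_at names, and means over probe sets.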

Additional observations from a re-analysis of the deposited data

Results flagged for a closer look

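Cxcl2, the neutrophil-attracting chemokine, was the only called gene that passed 2-fold in opposite directions without and with IL6. Its log2 ratio was at least 1.78 for HC over NC, with log2 signals of 6.49 and 9.28, and -2.13 for HC+IL6 over NC+IL6, with 12.39 and 10.26. With 1 array in each condition this difference was not tested. No group held enough samples to look for a sample that stands apart.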

How the results depend on the processing

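No replicate could be left out, and no paired analysis was possible because each condition has 1 array. Without raising the dimmer signal, 889 probe sets and 380 genes were higher, and a limit of 6.5 gave the same 889 probe sets. A limit of 8.5 left 262 probe sets and 150 genes higher. With 100 added to each signal, 98 probe sets and 56 genes were lower. In probe sets, higher calls made up 75.2% as deposited, 61.4% after quantile normalization (353 higher and 222 lower) and 61.2% after cyclic loess (352 and 223). All other counts of calls stayed within 1.5 times. The scalings moved the median of all genes from 0.04 to between -0.03 and -0.01. Of the list medians, that of core and variant histones, which rests on H3f3a alone, went from 0.83 to -0.027 at a limit of 6.5. Medians near 0 (cytosolic ribosome, iron and heme, MAPK kinases, macrophage identity, NADPH oxidase and solute carriers) changed sign between scalings. Of 113 called genes named by rule, 10 fell under 2-fold after quantile normalization, 9 after cyclic loess, 6 after the shift, 28 at a limit of 8.5, 20 with 100 added, 2 of 105 without the shared probe sets and 15 as means over probe sets, and 0 changed sign. Those lost as means over probe sets include Egln1, Btg2, Sdad1, Oxnad1, Sc5d, Hspa1b, Dnajb4 and Cysltr1. Signal over background limits calls to genes whose brighter log2 signal is 8.5 or more.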

Other observations

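Called genes that lie next to each other in the RefSeq gene order and went the same way formed 9 pairs, of which Igtp and Irgm2 on chromosome 11 were lower and the other pairs higher. On chromosome 7, Adm had a log2 ratio of at least 1.34 and Ampd3, an AMP deaminase, 1.06. On chromosome 15, Basp1 had 2.30 and Myo10, a myosin of filopodia, 1.05, and on chromosome 1, Fcgr4 had at least 1.19 and Fcgr3 1.80. The zinc finger genes Zfp942 and Zfp943 on chromosome 17 had 1.09 and at least 1.13, and as near relatives they may share probes.

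Further called genes outside the lists included nuclear noncoding RNA and surface proteins. Malat1, a noncoding RNA whose gene lies close to Neat1, had a log2 ratio of 1.06. Selenop, the plasma carrier of selenium, had 1.68, Xdh, xanthine dehydrogenase, 1.53, Lrp1, a large endocytic receptor, 1.37, S1pr1, a receptor for sphingosine-1-phosphate, 1.24, Insr, the insulin receptor, 1.19, and Nfat5, the transcription factor of osmotic stress, 1.45. Lower genes outside the lists included Pcyt2, of phosphatidylethanolamine synthesis, at -1.13, Aacs, acetoacetyl-CoA synthetase, at -1.04, and Cyb5b, a mitochondrial cytochrome, at -1.28. These genes were chosen after their values were seen.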
